A study of Homo sapiens with 4 samples.

Results

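Mitosis and spindle genes encode the proteins that drive a cell into division and build the apparatus that separates its chromosomes. The group described here holds 38 genes, chosen as a list of regulators, checkpoint proteins, kinetochore components, motors and spindle proteins together with general markers of dividing cells. All 38 were measured, out of 18304 genes on the array. A probe set, a group of short probes that reads 1 transcript region, was counted for a gene only where the platform annotation named that gene alone. By that rule the 38 genes had 70 of the 41920 probe sets that were not array controls. All 4 samples came from U87 glioma cells, a human cell line, and all carried a knockdown of QK, whose gene QKI encodes an RNA-binding protein. One group was transduced with miR-20a (2 arrays) and the other, its control, with miR-NT, a scrambled microRNA (2 arrays). The comparison asks how mRNA levels differ once QK-depleted cells receive miR-20a. Both groups carry the knockdown, the labels name neither its method nor a clone, and cells without it were not analysed here.

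Most of these genes are known to be transcribed late in the cell cycle, when the DREAM repressor complex gives way to MYB and FOXM1 bound to the MuvB core. Their promoters are known for CHR elements, which recruit MuvB, and for CCAAT boxes, which bind NF-Y. Cyclin-CDK1 then starts mitosis, the spindle checkpoint holds it until every kinetochore is attached, and the anaphase-promoting complex with CDC20 and UBE2C ends it by marking cyclins and securin for destruction. In glioma, as in other tumours, high levels of such genes mark proliferating cells.

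The mature sequence annotated as miR-20a-5p is shown first, because the labels name miR-20a as the supplied microRNA, without its arm or construct, and because microRNAs recognise transcripts mainly through the seed, bases 2 to 8, which is in capitals. It is the sequence of RefSeq on GRCh38.p14, from chr13:91351072-91351094 on the plus strand. The mature form of miR-17 from the same cluster, chr13:91350618-91350640 on the plus strand, is given for comparison, and 8 mature human microRNAs in that table share the seed.
hsa-miR-20a-5p: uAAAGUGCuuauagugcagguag
hsa-miR-17-5p: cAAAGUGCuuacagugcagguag

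The promoters of the mitotic genes share sequence features that did not enter their choice. Windows reaching from 250 bases before to 50 bases after an annotated start were matched for 32 of the 38 genes, 3 of them with 2 starts, which gave 35 windows. AURKA, TTK, UBE2C, BIRC5, TPX2 and FOXM1 had no window. The CHR core TTTGAA, read on either strand, was present in 23 of the 35 windows (65.7%), against 15.2% of all 35116 promoter windows and 12.1% of those of genes on the array. CCAAT on either strand was present in 29 windows (82.9%), against 34.6% of all windows. Both occurred together in 20 windows (57.1%), against 5.9% of all windows. The variant TTCGAA was present in 2 windows (5.71%), those of BUB1 and NDC80, against 1.45% of all windows. These counts describe letters in a fixed window and show no binding.

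The stretches below, 130 bases that end at the base before the annotated start (RefSeq, GRCh38.p14, 5′ to 3′ on the gene's strand), belong to the genes with a window that reached an unadjusted p under 0.05 in either direction under the deposited scaling, and to the proliferation marker MKI67. Capitals mark TTTGAA and CCAAT or their reverse complements, TTCAAA and ATTGG. In CDCA8 and MKI67 a TTTGAA and an ATTGG overlap by 1 base. The stretches are chr16:23678759-23678888 (plus) for PLK1, chr1:43358851-43358980 (plus) for CDC20, chr2:26785926-26786055 (plus) for CENPA, chr1:37692386-37692515 (plus) for CDCA8, chr10:128126424-128126553 (minus) for MKI67 and chr10:92593000-92593129 (plus) for KIF11.
PLK1: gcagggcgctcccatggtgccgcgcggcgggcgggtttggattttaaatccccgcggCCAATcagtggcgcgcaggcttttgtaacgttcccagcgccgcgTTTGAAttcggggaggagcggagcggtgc
CDC20: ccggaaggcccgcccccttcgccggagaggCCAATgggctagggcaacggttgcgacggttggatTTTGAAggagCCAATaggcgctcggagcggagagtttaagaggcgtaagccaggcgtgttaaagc
CENPA: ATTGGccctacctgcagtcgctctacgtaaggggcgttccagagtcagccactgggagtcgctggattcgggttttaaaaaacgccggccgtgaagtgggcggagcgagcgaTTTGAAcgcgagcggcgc
CDCA8: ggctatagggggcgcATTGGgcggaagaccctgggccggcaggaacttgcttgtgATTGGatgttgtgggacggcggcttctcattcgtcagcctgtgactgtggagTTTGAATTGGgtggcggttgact
MKI67: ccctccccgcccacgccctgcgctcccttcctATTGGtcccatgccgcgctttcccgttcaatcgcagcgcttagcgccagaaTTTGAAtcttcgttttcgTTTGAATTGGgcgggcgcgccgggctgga
KIF11: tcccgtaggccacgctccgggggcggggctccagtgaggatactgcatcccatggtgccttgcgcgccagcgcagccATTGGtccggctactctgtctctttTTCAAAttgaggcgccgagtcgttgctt

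**Figure D1:**
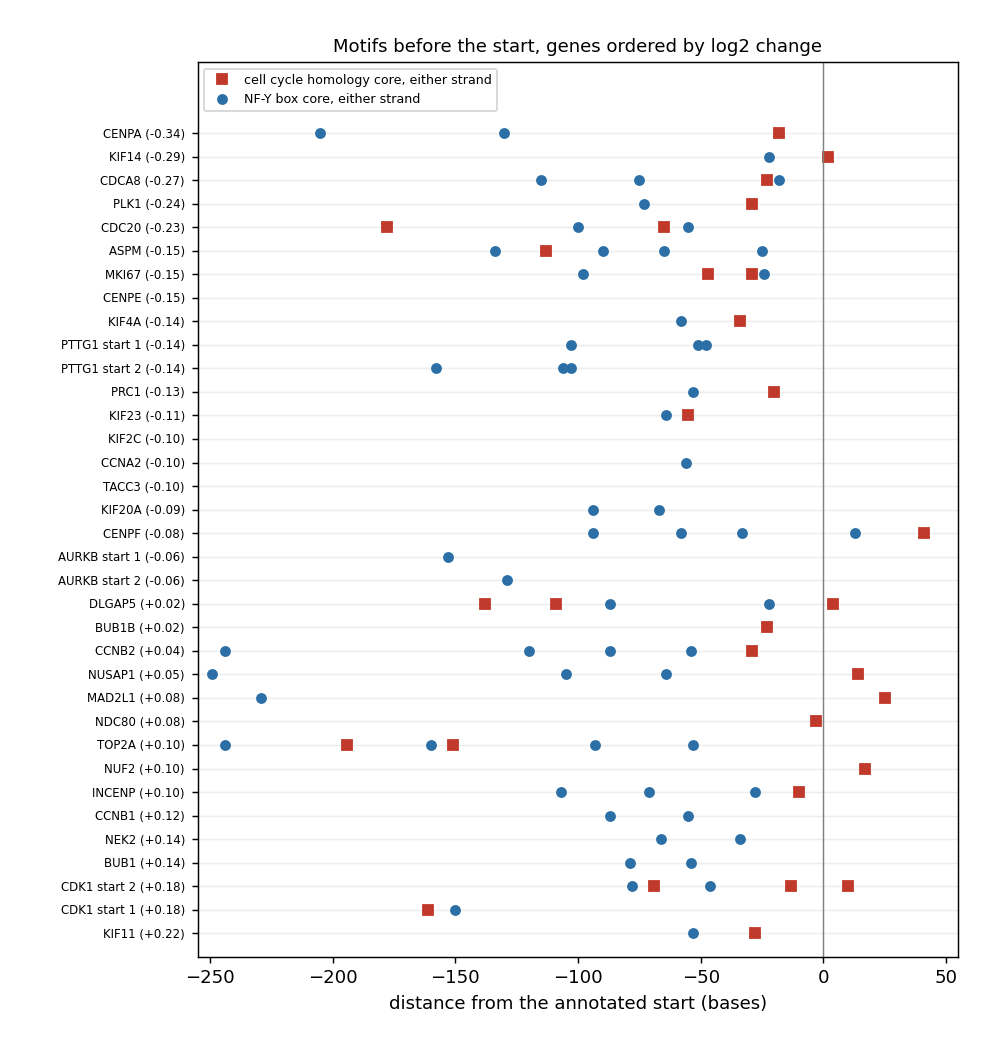
Positions of the CHR core (cell cycle homology core, squares) and the CCAAT core (NF-Y box core, circles), on either strand, in the 35 promoter windows, by distance in bases from the annotated start. Genes run from the lowest log2 change (miR-20a minus miR-NT, in brackets) at the top to the highest at the bottom, and the CHR core occurs at both ends, in CENPA at -0.34 as in KIF11 at 0.22.

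The arrays were closely alike, and the glioma and mesenchymal markers other than NES were measured at high levels. Pearson correlations over all probe sets lay between 0.9908 and 0.9961, and at most 128 probe sets had exactly the same deposited value, with no tolerance, on a pair of arrays. QKI was at 9.53 and 9.38 log2 units on the miR-20a arrays, against 9.18 and 9.38 on the miR-NT arrays, so the groups overlapped. MIR17HG, the host transcript of the miR-20a cluster, was at 4.18 and 4.22 log2 units on the miR-20a arrays and at 3.98 and 3.97 on the miR-NT arrays. All 8 glioma and mesenchymal markers were measured, at 8.10 to 14.67 log2 units, with summed levels of 97.7 to 98.3 on the miR-20a arrays and 98.6 to 99.0 on the miR-NT arrays. Of these 8, CHI3L1, a secreted chitinase-like protein, was the one that passed the test, at 12.44 and 12.32 log2 units on the miR-20a arrays, against 13.49 and 13.51 on the miR-NT arrays (change -1.12, limma adjusted p = 0.0106). The 29 measured markers of astrocytes and oligodendrocytes, epithelium, blood and endothelium lay between 4.64 and 8.70 log2 units, and the values carry no detection calls. NES, the lowest of the 8 glioma and mesenchymal markers at 8.10, lay within that range. The difference between the 3′ and 5′ probe sets of ACTB, a sign of RNA integrity, was 0.49 ± 0.04 log2 units on the miR-20a arrays and 0.27 ± 0.11 on the miR-NT arrays (SD, n = 2 each). The same difference for GAPDH was 0.27 and 0.28 log2 units on the miR-20a arrays, against 0.22 and 0.22 on the miR-NT arrays, again without overlap. The part of either in the results below was not tested.

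Under the deposited scaling, none of the 38 mitotic genes passed the test, and their changes were small. Each gene was represented by its probe set with the highest mean, and miR-20a was compared with miR-NT by limma over all genes with Benjamini-Hochberg adjustment at 0.05. By that rule 0.426% of all genes passed in either direction. The smallest adjusted p of a mitotic gene was 0.101 (limma), for CENPA. Before adjustment, 6 of the 38 (15.8%) were lower and 1 (2.63%) was higher at p under 0.05, against 9.24% and 12.6% of all genes (limma). Both counts changed when single arrays were left out, as did the share of all genes at that p. Such fits leave 1 array in a group. With all 4 arrays the lower genes were CENPA, UBE2C, TPX2, CDCA8, PLK1 and CDC20, and the higher gene was KIF11. In all, 22 of the 38 means were lower and 16 higher, against 53% and 47% of all genes, with changes from -0.34 to 0.22 on the log2 scale and a median of -0.087, against a median of -0.013 over all genes. The median of the mitotic genes was 0.0056 without miR-20a replicate 2. The 95% interval of the change lay within a 1.5-fold difference in either direction for 36 of the 38 genes, KIF14 and KIF23 being the exceptions. Members also passed under 2 alternatives in which many more genes did. With the lower 40% of genes by mean level left out, UBE2C and CENPA passed, as did 11.3% of the genes kept, and with a trended and robust fit UBE2C, CENPA and TPX2 passed, as did 6.62% of all genes (limma). At an adjusted p under 0.1 with the deposited values, no member passed, where 4.94% of all genes did (limma). At 0.05 none passed after cyclic loess normalization (0.486% of all genes passed), after median centring (0.967%) or with all probe sets of a gene averaged (0.836%). None passed without miR-20a replicate 1 (0.229%), without miR-20a replicate 2 (1.11%), or without either miR-NT array or with a replicate block, where 0% of all genes did. In such bulk RNA, fewer dividing cells and less RNA per dividing cell cannot be told apart.

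After quantile normalization, which gives the arrays the same distribution of values, more of the genes lay lower in miR-20a cells. None passed the test, against 0.606% of all genes, and the smallest adjusted p was 0.0712, for UBE2C (limma). Before adjustment, 10 of the 38 (26.3%) were lower and 1 (2.63%) was higher at p under 0.05, against 10.1% and 9.55% of all genes (limma). The added genes were PTTG1, PRC1, FOXM1 and MKI67. Of the means, 28 were lower and 10 higher, against 53.2% and 46.8% of all genes, and the median change was -0.14, against -0.014 over all genes. The groups did not overlap for 19 genes that were lower (50%) and 3 that were higher (7.89%), against 28.2% and 23.1% of all genes. Under the deposited scaling these counts were 14 (36.8%) and 6 (15.8%), against 27% and 25.5% of all genes. The 95% interval lay within a 1.5-fold difference for 32 of the 38 genes after quantile normalization. Over all genes the change rose with level under the deposited scaling (Spearman rho 0.287) but not after quantile normalization (0.0020). Among the 38 genes rho was -0.23 and -0.49. The median level of the 38 lay above that of all genes on every array. What this dependence on level adds to the changes was not tested.

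**Figure D2:**
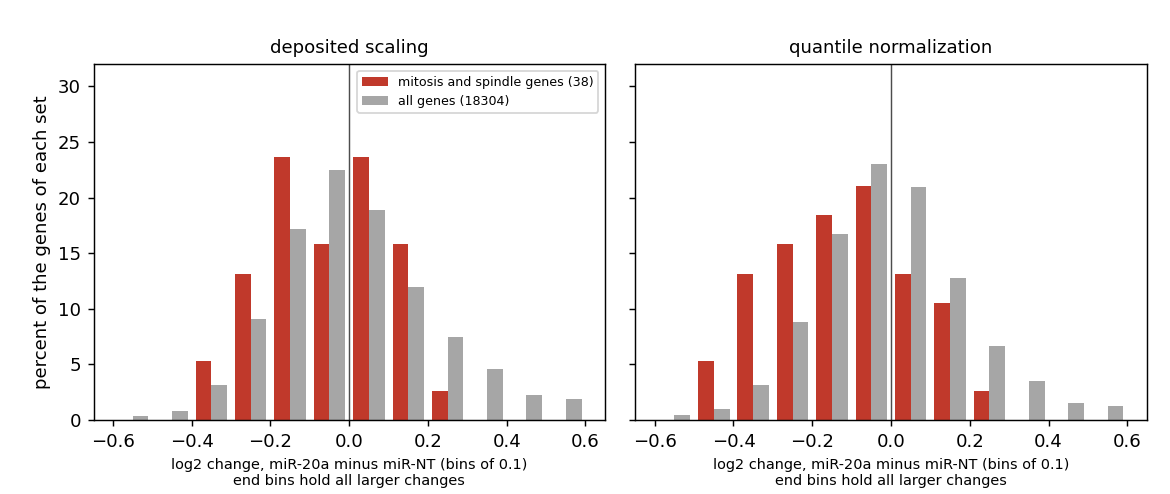
Percent of the 38 mitotic genes and of all 18304 genes in bins of log2 change (miR-20a minus miR-NT), under the deposited scaling (left) and after quantile normalization (right). The median of the mitotic genes is -0.087 on the left and -0.14 on the right, and no mitotic gene lies above 0.22 on the left.

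The regulators of anaphase were the group of genes in which every member was lower in miR-20a cells under both scalings. UBE2C, the ubiquitin-conjugating enzyme of the anaphase-promoting complex, was at 11.03 and 11.05 log2 units on the miR-20a arrays, against 11.34 and 11.38 on the miR-NT arrays. CDC20, the activator of that complex, was at 9.90 and 9.95 log2 units on the miR-20a arrays and at 10.15 and 10.16 on the miR-NT arrays. PTTG1, the securin that restrains separase, was at 11.68 and 11.75 log2 units on the miR-20a arrays and at 11.86 and 11.85 on the miR-NT arrays. For all 3 genes both miR-20a arrays lay below both miR-NT arrays, as for 27% of all genes, yet none passed the test. The change of UBE2C was -0.32 ± 0.08 (SE, limma adjusted p = 0.111), a level 1.25-fold lower, that of CDC20 was -0.23 ± 0.08 (limma adjusted p = 0.182) and that of PTTG1 was -0.14 ± 0.085 (limma adjusted p = 0.370). After quantile normalization the changes were -0.47, -0.35 and -0.32 in the same order. The probe sets used for PTTG1, CENPA and FOXM1 carry a suffix that Affymetrix gives to sets with possible cross-hybridisation. PTTG1 also has near-identical copies in the genome, so its value is uncertain.

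Centromere and kinetochore genes lay on both sides of 0. CENPA, the histone variant that marks the centromere, was at 8.39 and 8.45 log2 units on the miR-20a arrays, against 8.75 and 8.78 on the miR-NT arrays. Its change of -0.34 ± 0.08 (SE, limma adjusted p = 0.101), a level 1.27-fold lower, was the largest negative change among the 38. A further probe set, annotated to both SLC35F6 and CENPA and therefore outside the rule, was at 8.39 and 8.31 log2 units on the miR-20a arrays and at 8.24 and 8.30 on the miR-NT arrays, with the opposite sign. CENPF, a large kinetochore protein, had a change of -0.085, and all 3 of its probe sets were lower. CENPE, the kinetochore motor, had a change of -0.15, with groups that overlapped. NDC80 and NUF2, partners in the complex that grips microtubules, had changes of 0.082 and 0.099, again with overlapping groups.

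In the chromosomal passenger complex, which corrects faulty attachments, 2 members had lower and 2 had higher means. CDCA8, the subunit called borealin, was at 9.60 and 9.59 log2 units on the miR-20a arrays and at 9.92 and 9.81 on the miR-NT arrays, with no overlap. Its change was -0.27 ± 0.09 (SE, limma adjusted p = 0.151). AURKB, the kinase of the complex, had a change of -0.063, and INCENP, its scaffold, one of 0.10. BIRC5, the subunit known as survivin, had a change of 0.13, with 1 of its 4 probe sets on the other side of 0.

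CDK1 and its cyclins lay within 0.2 log2 units of the control cells. CDK1, the kinase that triggers mitosis, was at 9.66 and 9.65 log2 units on the miR-20a arrays, against 9.46 and 9.48 on the miR-NT arrays. Its change was 0.18 ± 0.08 (SE, limma adjusted p = 0.252), shared in sign by 3 of its 4 probe sets, and was 0.094 after quantile normalization. CCNA2, cyclin A2, had a change of -0.099 without overlap. The B-type cyclins CCNB1 and CCNB2 had changes of 0.12 and 0.039 that turned to -0.015 and -0.054 after quantile normalization.

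Among the kinases that act beside CDK1, PLK1 was the lowest. PLK1, a kinase of centrosome maturation and mitotic entry, was at 9.03 and 9.13 log2 units on the miR-20a arrays, against 9.36 and 9.29 on the miR-NT arrays. Both miR-20a arrays lay below both miR-NT arrays, with a change of -0.24 ± 0.09 (SE, limma adjusted p = 0.180) that was -0.33 after quantile normalization. AURKA, the centrosomal Aurora kinase, had a change of 0.090 that turned to -0.011 after quantile normalization. NEK2, a kinase of centrosome separation, had a change of 0.14, while its other probe set had -0.22.

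The spindle checkpoint genes had small changes by the probe sets used. BUB1, a checkpoint kinase at the kinetochore, was at 8.23 and 8.30 log2 units on the miR-20a arrays and at 8.22 and 8.02 on the miR-NT arrays. Its change was 0.14 ± 0.099 (SE, limma adjusted p = 0.444), the gap to miR-NT replicate 1 was narrow, and 3 of its 5 probe sets lay on the other side of 0. BUB1B, the checkpoint protein BubR1, had a change of 0.023 and TTK, the kinase Mps1, one of -0.0041, both with overlapping groups. MAD2L1, which binds and restrains CDC20, had a change of 0.081 by the probe set used. Its other probe set was at 8.39 and 8.35 log2 units on the miR-20a arrays, against 7.77 and 8.01 on the miR-NT arrays, a change of 0.48 ± 0.11 (SE, limma adjusted p over all probe sets = 0.141). That probe set had the smallest unadjusted p of all 70 (limma, 0.00367).

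Among the 6 kinesin motors 5 had lower means under the deposited scaling, against 53% of all genes. None passed the test, and the groups of all 5 overlapped by the probe sets used. KIF11, the motor Eg5 that pushes the spindle poles apart, was at 8.15 and 8.02 log2 units on the miR-20a arrays and at 7.85 and 7.88 on the miR-NT arrays. Its change of 0.22 ± 0.09 (SE, limma adjusted p = 0.227) was the highest among the 38, and it was 0.21 after quantile normalization. KIF14, a cytokinesis motor, was at 7.44 and 6.92 log2 units on the miR-20a arrays, against 7.53 and 7.41 on the miR-NT arrays. Its change of -0.29 ± 0.17 (SE, limma adjusted p = 0.359) came with a gap between the miR-20a arrays as wide as 0.53, so the groups overlapped. KIF23, a motor of the central spindle, had 6.997 and 6.22 log2 units on the miR-20a arrays, which enclosed the 6.64 and 6.79 of the miR-NT arrays. KIF20A, of the same structure, KIF2C, which dismantles microtubule ends, and KIF4A, a chromosome-bound motor, had changes of -0.090, -0.10 and -0.14. After quantile normalization these were -0.19, -0.19 and -0.23 without overlap, where 28.2% of all genes were lower without overlap. The other probe set of KIF2C was at -0.28 without overlap under the deposited scaling, against 27.2% of all probe sets. Under that scaling the signs of KIF20A and KIF23 turned without miR-20a replicate 2, to 0.0035 and 0.28.

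**Figure D3:**
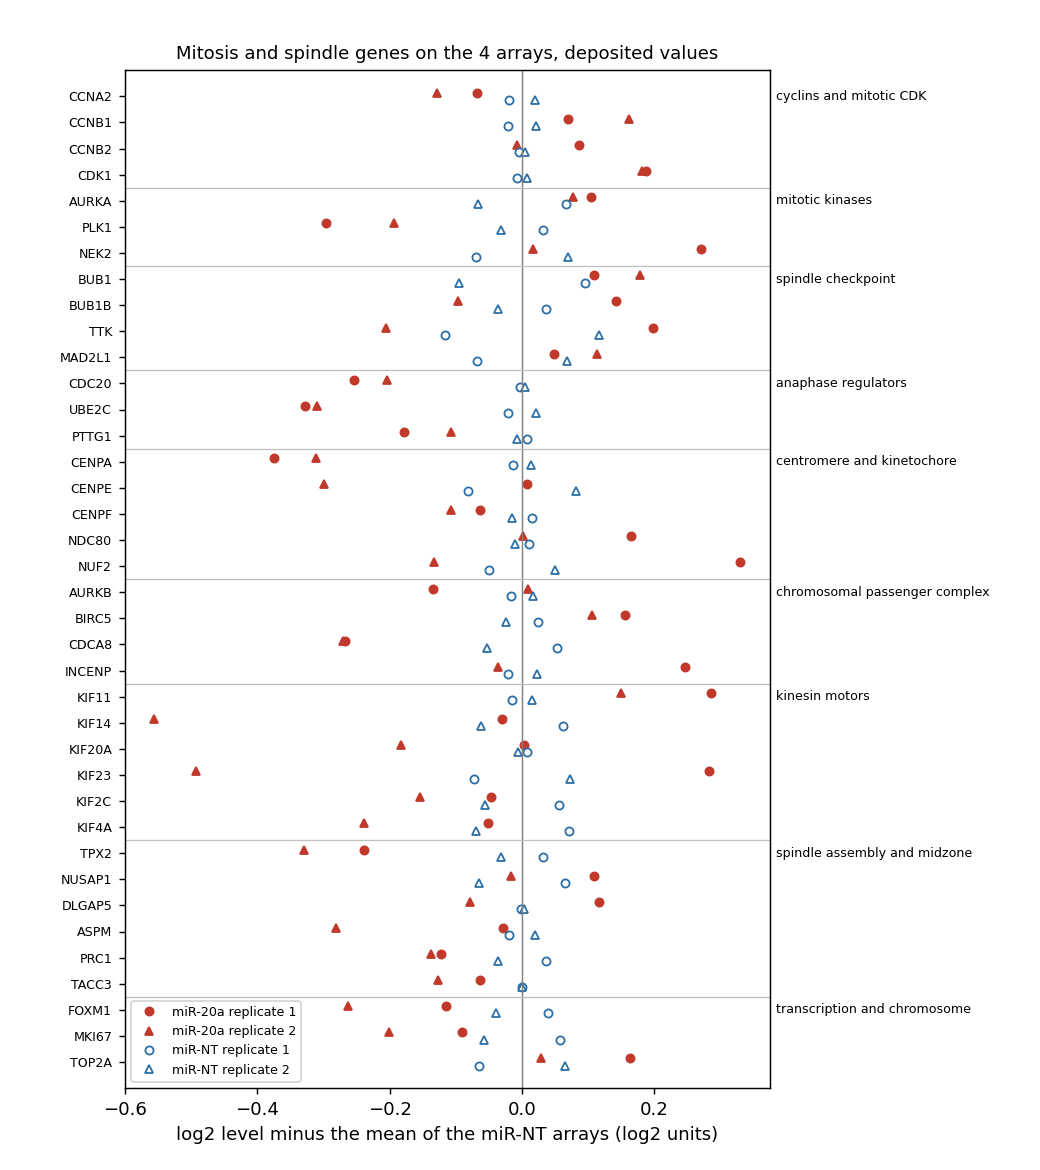
Log2 level of each of the 38 genes on each array minus the mean of the miR-NT arrays, under the deposited scaling, with miR-20a arrays as filled red marks and miR-NT arrays as open blue marks (circles for replicate 1, triangles for replicate 2). The miR-20a points of UBE2C, CENPA, CDCA8 and TPX2 lie left of both miR-NT points, and those of KIF23 and KIF14 are spread widely.

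Spindle assembly genes had lower means in 4 of 6 cases under the deposited scaling, against 53% of all genes. TPX2, which nucleates microtubules and activates AURKA, was at 10.84 and 10.75 log2 units on the miR-20a arrays, against 11.11 and 11.05 on the miR-NT arrays. Its change was -0.28 ± 0.09 (SE, limma adjusted p = 0.140), and it was -0.44 after quantile normalization (limma adjusted p = 0.0841). PRC1, which bundles microtubules of the midzone, was at 10.19 and 10.18 log2 units on the miR-20a arrays and at 10.35 and 10.28 on the miR-NT arrays. Its change was -0.13 ± 0.08 (SE, limma adjusted p = 0.418), and its groups, like those of TPX2, did not overlap. ASPM, a protein of spindle poles, had a change of -0.15 and TACC3, a stabiliser of spindle microtubules, one of -0.095. NUSAP1 and DLGAP5, microtubule-binding proteins of the spindle, had changes of 0.046 and 0.018 that turned to -0.086 and -0.038 after quantile normalization.

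The general markers of dividing cells gave a mixed picture. MKI67, which encodes the Ki-67 antigen, was at 9.13 and 9.02 log2 units on the miR-20a arrays, against 9.28 and 9.17 on the miR-NT arrays. Its change by this probe set was -0.15 ± 0.09 (SE, limma adjusted p = 0.407). All 4 probe sets of MKI67 were lower without overlap, against 27.2% of all probe sets, and the other 3 had changes of -0.26, -0.47 and -0.34. The lowest of them had 8.20 and 7.82 log2 units on the miR-20a arrays and 8.49 and 8.47 on the miR-NT arrays (limma adjusted p over all probe sets = 0.176). FOXM1, the transcription factor of late cell cycle genes, was at 9.40 and 9.25 log2 units on the miR-20a arrays and at 9.55 and 9.47 on the miR-NT arrays. Its change was -0.19 ± 0.09 (SE, limma adjusted p = 0.294), and its groups did not overlap. TOP2A, the topoisomerase that untangles sister chromatids, had a change of 0.096 that turned to -0.025 after quantile normalization, and 2 of its 3 probe sets were higher.

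**Figure D4:**
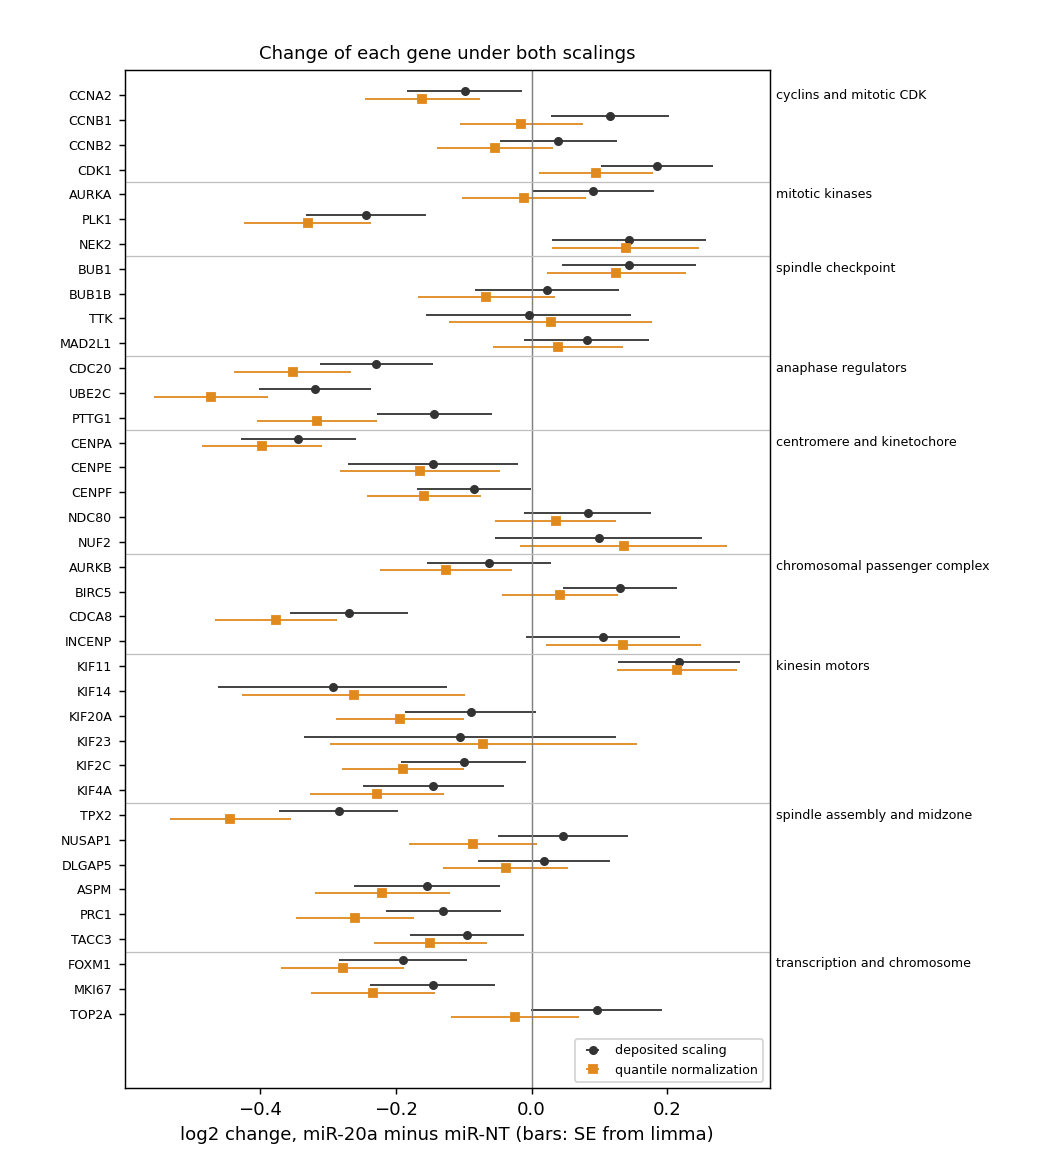
Log2 change (miR-20a minus miR-NT) with its limma standard error for each of the 38 genes, under the deposited scaling (circles) and after quantile normalization (squares). UBE2C, TPX2, CENPA and CDCA8 lie furthest left after quantile normalization, at -0.47, -0.44, -0.40 and -0.38, and KIF11 furthest right, at 0.21.

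Over all 70 probe sets, 43 were lower and 27 higher in miR-20a cells, against 55.2% and 44.8% of all probe sets. None passed a fit over all probe sets under the deposited scaling, where 0.136% of all probe sets did, or after quantile normalization, where 0.157% did. With the trended and robust fit the UBE2C probe set passed, as did 2.28% of all probe sets (limma). Before adjustment, 14 of the 70 (20%) were lower and 1 (1.43%) was higher at p under 0.05, against 8.4% and 9.46% of all probe sets (limma). After quantile normalization these were 16 (22.9%) and 1 (1.43%), against 8.03% and 8.04%. The median change of the 70 was -0.077, against -0.020 over all probe sets. Probe sets of the same gene read the same transcripts and are not independent, and MKI67 alone gave 3 of the 14. Of the 18 genes with more than 1 probe set, 8 had all of them on the same side of 0 and 10 did not. NUSAP1 had 0.046 by the probe set used and -0.24 by the other, at 9.85 and 9.99 log2 units on the miR-20a arrays against 10.15 and 10.17 on the miR-NT arrays. In CDK1 and TOP2A 1 probe set each went against the others, at -0.27 and -0.30. Each was the lowest of its gene in mean level, at 6.12 and 5.39 log2 units, against 9.56 and 9.99 for the probe sets used.

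**Figure D5:**
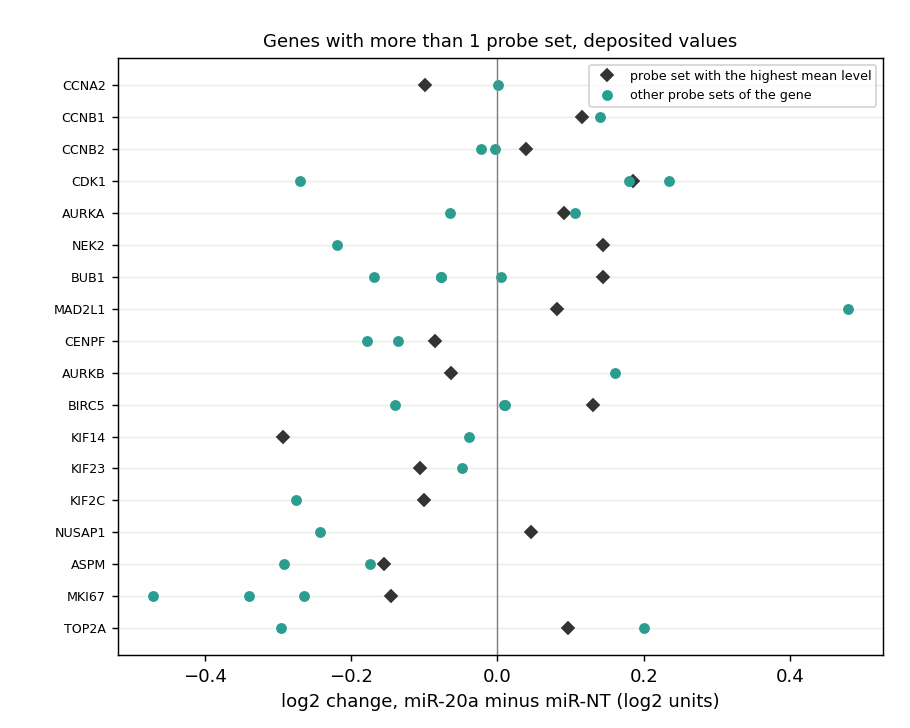
Log2 change (miR-20a minus miR-NT, deposited scaling) of every probe set of the 18 genes with more than 1, with the probe set of highest mean level as a diamond and the others as circles. The 4 probe sets of MKI67 all lie left of 0, between -0.47 and -0.15, while those of NUSAP1 and NEK2 fall on both sides.

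Most of these genes were higher on miR-20a replicate 1 than on replicate 2. In size the differences resembled those of all genes, with a median absolute difference of 0.108 log2 units, against 0.109. Of the 38 genes, 29 (76.3%) were higher on miR-20a replicate 1 than on replicate 2, against 49% of all genes, and the median difference was 0.10 log2 units, against -0.0032 over all genes. After quantile normalization 24 of the 38 (63.2%) were, against 45.3% of all genes. Between the miR-NT arrays, 18 of the 38 (47.4%) were higher on replicate 1, against 52.2% of all genes. The miR-20a arrays were more than 0.3 log2 units apart for 5 of the genes, KIF23, KIF14, NUF2, TTK and CENPE, by 0.78, 0.53, 0.46, 0.40 and 0.31. The miR-NT arrays were that far apart for 0 of them. Over all genes, 10.5% were that far apart between the miR-20a arrays and 5.86% between the miR-NT arrays. By mean level KIF23, KIF14, NUF2, TTK and CENPE stood at percentiles 29.4, 43.4, 29.4, 41.0 and 62.6 of all genes. The part of a low level in their spread was not tested.

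Other genes of mitosis, listed by complex or process, went both ways. Of 116 listed, 111 were measured and none passed the test over all genes under the deposited scaling (limma). Before adjustment, 13 (11.7%) were higher and 7 (6.31%) lower at p under 0.05, against 12.6% and 9.24% of all genes (limma). After quantile normalization 6 (5.41%) were higher and 14 (12.6%) lower, against 9.55% and 10.1% of all genes. The lower ones then included TUBB, CEP55, TUBG1, TUBB4B and CKAP5, all from the list of spindle, centrosome and cytokinesis genes. The median change of the 111 was 0.021 under the deposited scaling and -0.038 after quantile normalization.

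Of 14 listed subunits and regulators of the anaphase-promoting complex, 11 were higher under the deposited scaling, all of them subunits, against 47% of all genes. The median change of the list was 0.23. The remaining genes, FZR1, FBXO5 and UBE2S, had lower means, at -0.17, -0.13 and -0.012, as had CDC20 and UBE2C above. The groups of UBE2S overlapped. Before adjustment, 8 (57.1%) were higher and 0 lower at p under 0.05, against 12.6% and 9.24% of all genes (limma). ANAPC11, its RING subunit, was at 10.67 and 10.80 log2 units on the miR-20a arrays, against 10.24 and 10.45 on the miR-NT arrays. Its change of 0.39 ± 0.11 (SE, limma adjusted p = 0.118) did not pass, but did with low genes left out and with the trended and robust fit (limma adjusted p = 0.0477 and 0.0393). CDC23 and ANAPC4, structural subunits, had changes of 0.30 and 0.30. After quantile normalization the median of this list was 0.098, and the subunits ANAPC5 and ANAPC7 had lower means, at -0.0015 and -0.042. At p under 0.05 before adjustment, 4 members of the list (28.6%) were then higher and 2 (14.3%) lower, against 9.55% and 10.1% of all genes (limma).

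The other lists are given under the deposited scaling. Genes with p under 0.05 before adjustment are set beside 12.6% higher and 9.24% lower among all genes (limma). Among 33 further kinetochore and checkpoint genes there were 4 higher and 3 lower ones (limma), close to those shares. CENPT, a link from centromere to kinetochore, was at -0.29, NSL1, of the Mis12 complex, at 0.31 and CENPN, which binds CENPA nucleosomes, at 0.26. Of 19 condensin, cohesin and separase genes, 0 were higher and 1 was lower by that rule (limma). That gene was NCAPH, a condensin subunit, at -0.28, followed by SMC2 at 0.21 and SMC1A at 0.19. Of 25 other spindle, centrosome and cytokinesis genes, 0 were higher and 2 lower (limma). These were TUBB, a beta-tubulin with close paralogs that make its value uncertain, at -0.28, and CEP55, a midbody protein, at -0.26, and KIF18A followed at -0.19. Of 20 regulators of mitotic entry and of the DREAM and MuvB complexes, 1 was higher and 1 lower (limma). CKS2, a small CDK-binding protein, was at 11.10 and 11.29 log2 units on the miR-20a arrays, against 10.43 and 10.75 on the miR-NT arrays. Its change of 0.61 ± 0.13 (SE, limma adjusted p = 0.0878) was the largest among the 111. It passed with low genes left out and with the trended and robust fit (limma adjusted p = 0.0293 and 0.0213), and TUBB passed with the trended and robust fit (limma adjusted p = 0.0322). MYBL2, the MYB factor that joins MuvB, had a change of -0.23, and MASTL, a kinase of mitotic entry, one of 0.26.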

How the data were processed

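Each of the 4 samples was read on 1 Affymetrix array, from 6 µg of total RNA per the labels' protocols. The authors deposited log2 probe-set levels. The base was inferred from the highest value, 15.07. The R package affy is named in the submitters' processing notes, while the sources used here do not give the background correction, normalization or summarization. Of 41930 probe sets, 10 were array controls, 37465 named 1 gene, 1727 several and 2728 none in GEO's platform annotation, and 0 symbols changed against RefSeq. Group was fitted with limma 3.58.1 (R 4.3.3, lmFit, then eBayes, prior degrees of freedom 4.73), tested on simulated data. An exact permutation test of 2 arrays against 2 cannot go below p = 0.333, and the small number of arrays limits precision. The labels do not say whether samples were separate cultures, so p-values measure only the spread between them, which may be technical. The members and lists were chosen with earlier results of these data known. Values on every array are given for members at an unadjusted p under 0.05 under either scaling and for the largest change of each role. Other mitotic genes are named as the 3 with the smallest p per list, besides QKI and MIR17HG. Further probe sets, the arrays of KIF23, ANAPC11 and CKS2, and the genes FZR1, FBXO5, UBE2S and NES were singled out after their values were seen. Alternatives were quantile, cyclic loess and median scaling, a filter on low levels, a trended and robust fit, averaging of probe sets, a threshold of 0.1, a replicate block and leaving out each array.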

Additional observations from a re-analysis of the deposited data

How the results depend on the processing

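Leaving out the lower 40% of genes by mean level, 2 members passed, UBE2C (-0.32, limma adjusted p = 0.0411) and CENPA (-0.34, limma adjusted p = 0.0366), against 11.3% of genes, and 2 other mitotic genes, CKS2 and ANAPC11. With a trended and robust fit 3 members passed, UBE2C, CENPA and TPX2, against 6.62% of genes, with 1 member probe set (UBE2C) and 3 other mitotic genes, CKS2, ANAPC11 and TUBB. At an adjusted p under 0.1, run on the deposited scaling alone, 1 other mitotic gene (CKS2) and no member passed (limma). After quantile normalization UBE2C, TPX2 and CENPA lay under 0.1, at limma adjusted p = 0.0712, 0.0841 and 0.0976. The smallest of a member was 0.0790 after cyclic loess normalization and 0.0858 with probe sets averaged (limma). No member passed at 0.05 under any other alternative run. Members lower at an unadjusted p under 0.05, 6 as deposited, were 10 after quantile or cyclic loess normalization and 2 to 9 when single arrays were left out (2 without miR-NT replicate 1). Higher members, 1 as deposited, were 2 after median centring, with low genes left out, with the trended fit and with probe sets averaged, 0 with the replicate block or with crossed numbers, and 0 to 4 when single arrays were left out (4 without miR-20a replicate 2, 0 without each other array). The median change lay between -0.13 and 0.0056 when single arrays were left out, and only without miR-20a replicate 2 was it above 0.

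Deviations of same-numbered arrays from their group means correlated at r = -0.11 over genes, and the labels do not say that numbers pair samples. With the replicate block 0 members passed and 5 were lower at an unadjusted p under 0.05 (limma). With crossed numbers, added after seeing the data, 0 passed and 6 were lower.

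The sign of a member turned in these cases, and the cause was not tested. With cyclic loess normalization, signs turned for CCNB1 at -0.0051, CCNB2 at -0.047, AURKA at -0.014, BUB1B at -0.058, TTK at 0.044, NUSAP1 at -0.077, DLGAP5 at -0.019 and TOP2A at -0.020. With all probe sets of a gene averaged, they were NEK2 at -0.038, BUB1 at -0.035, AURKB at 0.049 and NUSAP1 at -0.098. With median centring it was TTK at 0.031. With quantile normalization, signs turned for CCNB1 at -0.015, CCNB2 at -0.054, AURKA at -0.011, BUB1B at -0.067, TTK at 0.028, NUSAP1 at -0.086, DLGAP5 at -0.038 and TOP2A at -0.025. When single arrays were left out, the signs of 11 members turned, with changes of -0.14 to 0.0087 for AURKB, -0.096 to 0.14 for BUB1B, -0.0078 to 0.086 for CCNB2, -0.30 to 0.0078 for CENPE, -0.079 to 0.12 for DLGAP5, -0.037 to 0.25 for INCENP, -0.18 to 0.0035 for KIF20A, -0.49 to 0.28 for KIF23, -0.13 to 0.33 for NUF2, -0.019 to 0.11 for NUSAP1 and -0.21 to 0.20 for TTK.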
